A study of Mus musculus with 2 samples.

Results

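The 8 genes described here, Tcf7, Lef1, Id3, Bach2, Satb1, Foxp1, Foxo1 and Bcl11b, encode transcription regulators of naive and stem-like T cells. They were taken by name from the 22483 genes listed in both libraries of a mouse tumour study, and all 8 were listed in each. Wild-type C57BL/6 mice carried MC38 (colon carcinoma) tumours under the skin, and the CD45-positive immune cells were sorted from them. The PBM group received pulsed photobiomodulation, a treatment with light, every day from day 7 until tumours were taken on day 14, and the Control group is labelled only as control. Each group was 1 single-cell RNA library of cells pooled within the condition, from a number of mice not given in the sources used here. The labels call the cell type tumor cells, whereas the protocol sorted immune cells, and the classes below carried T, NK or B cell markers.

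TCF-1 (from Tcf7) and LEF-1 (from Lef1) are related DNA-binding proteins that carry Wnt and beta-catenin signals, and both are needed for T cell development. Naive T cells hold them at high levels, effector cells lose them, and the exhausted CD8 T cells of tumours and chronic infection are renewed from a stem-like subset that bears PD-1 (from Pdcd1) and keeps TCF-1. ID3 blocks E proteins and marks that subset, BACH2 is a repressor that restrains effector differentiation, SATB1 organises chromatin loops, FOXP1 and FOXO1 are forkhead factors of T cell quiescence and homing, and BCL11B fixes T lineage identity.

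The PBM library held 13062 cells after filtering and the Control library 11077, with 86159897 and 104673228 unique molecular identifiers (UMIs) before filtering and medians of 5143.5 and 5621.5 per barcode. Although 1991 barcode names occurred in both libraries, these names are running cell numbers, not nucleotide sequences, so sharing a name does not show a shared cell. Cells were clustered without the 8 genes and without Pdcd1, and named from marker genes. CD8 T cells (a UMI of Cd8a or Cd8b1, none of Cd4 or Foxp3) numbered 3508 in PBM and 1201 in Control, CD4 T cells (a UMI of Cd4 alone) 967 and 312, Foxp3-positive T cells 246 and 411, NK cells 203 and 1324, and B cells 5574 and 206. Another 2200 PBM and 672 Control T cells met no gate.

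Levels are UMIs summed over a class per 1000000 UMIs of that class in that library (CPM). Since each group is a single library, nothing could be tested between groups: the 95% intervals reflect counting error alone, and treatment, pool of animals and library cannot be told apart. Differences of 2-fold or more are counted, beside the share of all measured genes (at least 20 UMIs over both libraries) that differed as much.

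The classes compare different clusters. Of the CD8 T cells, 80.8% in PBM lay in a cluster led by Dapl1, a gene of naive CD8 T cells, whereas 83.2% in Control lay in a cluster led by Ifng, the interferon gamma gene, and Pdcd1. Of the CD4 T cells, 80.6% in PBM lay in a cluster led by Gm12840 and Cd40lg, and 76.0% in Control in a cluster led by Izumo1r and Cd4. Foxp3-positive T cells of PBM lay mostly (79.3%) in that Izumo1r-led cluster, and those of Control (95.6%) in a cluster led by Klrg1 and Foxp3. The gates were applied only to cells named T cells, and may be met there through free RNA, the RNA of broken cells in the droplets. The rule of the CD8 gate was also met by 31.9% of PBM and 5.83% of Control B cells, which did not enter the class. The cause was not tested. Such RNA could supply 12.4% to 24.0% of the CD8 T cell level of the 8 genes in PBM and 2.47% to 9.23% in Control. These ranges are over the 8 genes, at the median over markers of other classes, and leave out the spread of the markers. In CD8 T cells the markers ran from 10.71% to 20.53% of the library level in PBM and from 5.135% to 53.14% in Control. They reached 190.2% in PBM B cells and 263.7% in Control Foxp3-positive T cells. Macrophage-like cells, which should lack T cell factors, held 57.3 CPM of Tcf7 in PBM and 5.32 CPM in Control, and 17.4 and 3.37 CPM of Bcl11b.

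Sequences upstream of the annotated starts are shown for 3 of the genes, because TCF-1 and LEF-1 bind the letters CTTTGA. RefSeq (GRCm38.p6) gave 18 windows of 250 bases before a start for the 8 genes. The motif CTTTGA, on either strand, was in 4 windows, 1 each for Lef1, Bach2, Foxp1 and Bcl11b, and in 13.8% of all 32817 mouse windows. Neither the forkhead letters GTAAACA (3.16% of all windows) nor the Maf recognition letters TGANTCA that BACH2-type dimers bind (6.75%) were in any of the 18. The windows below are those with the motif and no base in an untranslated region, all at starts inside the gene: Lef1 at chr3:131156044-131156293, plus strand, outside the gene's exons; Bach2 at chr4:32417185-32417434, plus strand, outside its exons; and Foxp1 at chr6:99266516-99266765, minus strand, with 17 bases in an exon. Capitals mark the motif, read here as TCAAAG on the printed strand. A match describes letters and does not show binding.
Lef1: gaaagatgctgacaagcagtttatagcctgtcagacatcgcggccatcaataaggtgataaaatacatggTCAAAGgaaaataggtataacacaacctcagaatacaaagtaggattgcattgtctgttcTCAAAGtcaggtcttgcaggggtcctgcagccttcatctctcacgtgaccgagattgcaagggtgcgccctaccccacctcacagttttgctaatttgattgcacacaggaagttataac
Bach2: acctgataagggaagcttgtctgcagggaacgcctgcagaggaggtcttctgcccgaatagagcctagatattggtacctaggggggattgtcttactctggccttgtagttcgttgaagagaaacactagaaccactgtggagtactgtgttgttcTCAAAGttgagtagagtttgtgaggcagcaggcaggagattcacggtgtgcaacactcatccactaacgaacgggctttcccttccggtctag
Foxp1: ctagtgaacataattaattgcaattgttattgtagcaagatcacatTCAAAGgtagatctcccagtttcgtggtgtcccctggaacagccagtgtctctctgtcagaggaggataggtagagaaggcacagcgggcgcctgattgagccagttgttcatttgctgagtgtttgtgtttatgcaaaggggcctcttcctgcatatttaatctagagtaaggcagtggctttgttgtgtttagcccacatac

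In CD8 T cells all 8 genes were higher in PBM, 5 of them by 2-fold or more and none lower, while 8.08% of 12751 measured genes were higher and 17.7% lower by that much. Their median log2 ratio was 1.42, against -0.20 over all measured genes, and it was 1.22 with free RNA subtracted. The spread among the 8 was wide: Id3, Lef1 and Tcf7 differed by log2 ratios of 2.46 to 3.09, Foxp1 and Foxo1 by 1.43 and 1.41, and Bcl11b, Satb1 and Bach2 by 0.50 to 0.82. Pdcd1, the checkpoint receptor gene, went the other way, at 2.61 CPM in PBM and 208 CPM in Control (log2 -6.32, -6.69 to -5.96).

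**Figure D1:**
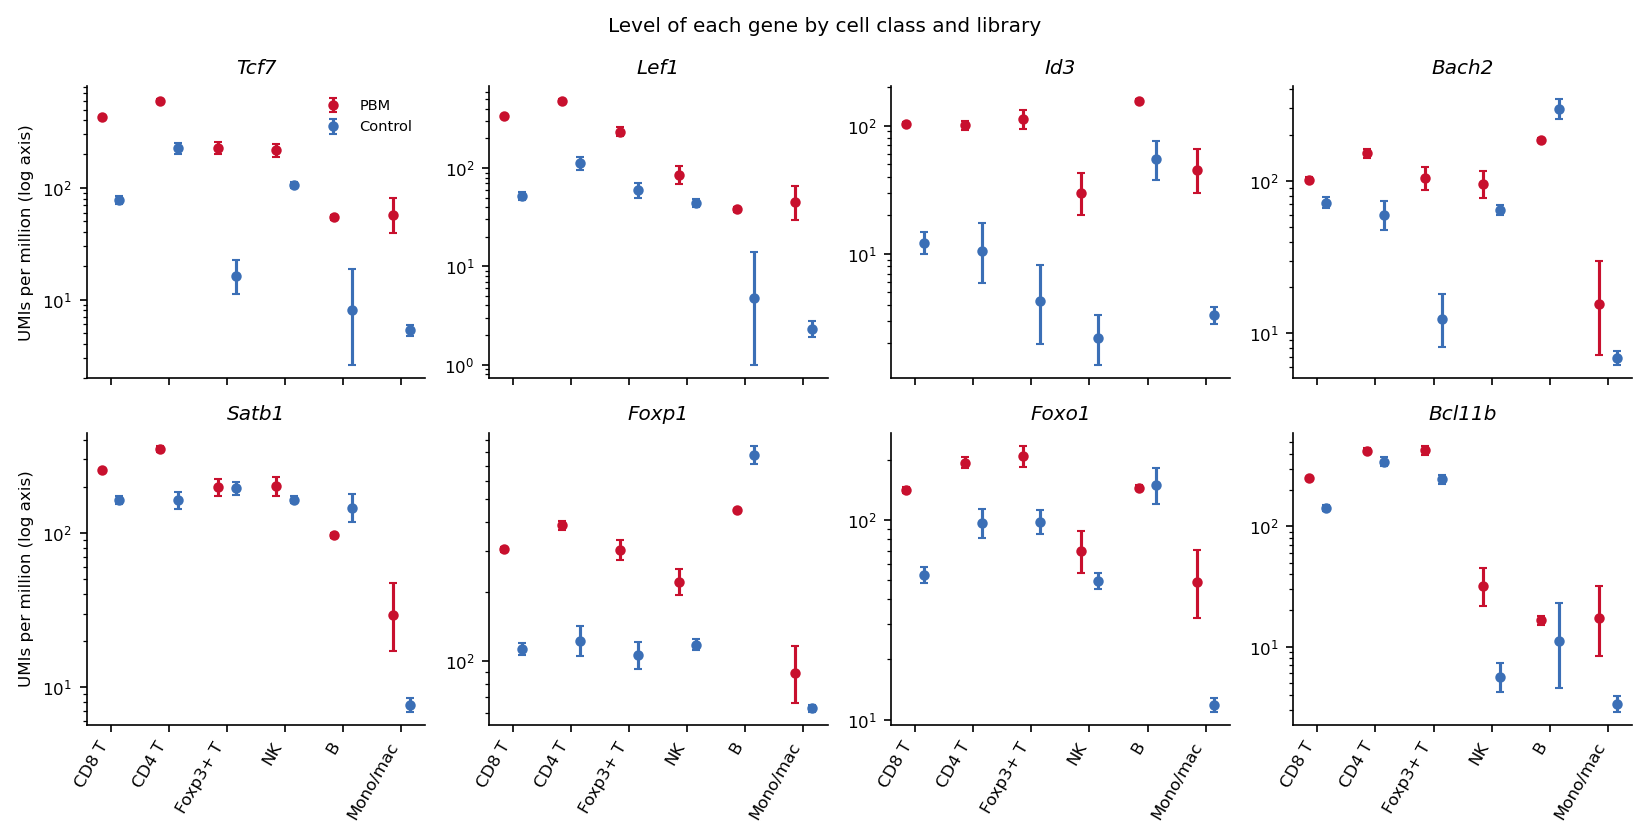
Level of each gene in CPM (log axis) in 6 cell classes, PBM left of Control, with 95% counting intervals. Tcf7 in CD8 T cells stood at 427 CPM in PBM and 77.6 CPM in Control, while Bach2 and Foxp1 in B cells lay lower in PBM.

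Tcf7 lies at chr11:52252371-52283014 on the minus strand (GENCODE vM21, GRCm38, ENSMUSG00000000782). It had 427 CPM in CD8 T cells of PBM and 77.6 CPM in those of Control (log2 2.46, 2.35 to 2.58). In CD4 T cells it had 597 CPM in PBM and 226 CPM in Control (log2 1.40, 1.24 to 1.57). Tcf7 was thus most abundant in CD4 T cells of both libraries. In PBM the order was CD4 T, CD8 T, then Foxp3-positive T (228 CPM) and NK cells (216 CPM), whose intervals overlapped. In Control it was CD4 T, NK (106 CPM), CD8 T, then Foxp3-positive T cells (16.2 CPM), so NK cells lay above CD8 T cells there and below them in PBM.

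A UMI of Tcf7 was seen in 87.7% of PBM and 25.2% of Control CD8 T cells, at median depths of 6363.5 and 5495 UMIs. Monocyte and macrophage-like cells, which should lack the gene, had one in 18.1% of PBM cells at 2310 UMIs and 4.33% of Control cells at 7016 UMIs. In cells thinned to 1000 UMIs each, the shares of CD8 T cells were 35.9% in PBM and 8.24% in Control. Free RNA could supply 12.4% of the PBM and 4.61% of the Control level in CD8 T cells. In Foxp3-positive T cells of Control, a Tcf7 UMI was seen in 4.62% of cells at 3820 UMIs. That was close to the share in macrophage-like cells of Control, which were deeper. By level, these T cells had 16.2 CPM and macrophage-like cells 5.32 CPM, and free RNA could supply 26.9% of the former. Foxp3-positive T cells of PBM had a Tcf7 UMI in 56.1% at 4331.5 UMIs. The log2 ratio in Foxp3-positive T cells was 3.82 (3.30 to 4.37).

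A630014C17Rik, an unnamed gene model on the opposite strand of the Tcf7 locus, followed Tcf7 more closely than any of the 3847 genes ranked. Its log2(CPM + 10) had a Pearson r of 0.97 with that of Tcf7 over the 10 profiles (5 classes in 2 libraries), which share library and depth. In CD8 T cells it stood at 330 CPM in PBM and 53.5 CPM in Control (log2 2.62, 2.49 to 2.76). Whether the counting used strand is not given in the sources used here, so reads of Tcf7 and of this overlapping model cannot be told apart. This model was not left out of the clustering and is among the leading genes of the Dapl1-led and Gm12840-led clusters. The next genes in likeness were Svopl (r 0.97) and Itm2a, a membrane protein gene of T cells (r 0.94).

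Lef1 (chr3:131110471-131224356, plus strand, ENSMUSG00000027985) had 336 CPM in CD8 T cells of PBM and 52.5 CPM in those of Control (log2 2.68, 2.54 to 2.82). In CD4 T cells Lef1 had 482 and 112 CPM in PBM and Control (log2 2.10, 1.87 to 2.34), and in Foxp3-positive T cells 236 and 59.4 CPM (log2 1.99, 1.68 to 2.30). Its order over classes differed from that of Tcf7 in Control, where Foxp3-positive T cells (59.4 CPM) and CD8 T cells (52.5 CPM) overlapped in their intervals. For Tcf7 the intervals of these classes were apart, with Foxp3-positive T cells the lower. A Lef1 UMI was seen in 79.8% of PBM and 21.9% of Control CD8 T cells, against 14.5% and 2.04% of macrophage-like cells at the depths given for Tcf7.

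Tcf7 and Lef1 had an r of 0.89 over the 10 profiles, the highest of the 28 pairs of the 8 genes. In thinned CD8 T cells of PBM, Lef1 was seen in 29.4% of the Tcf7-positive and 27.9% of the Tcf7-negative cells. In those of Control it was seen in 10.1% of the 99 Tcf7-positive and 5.63% of the Tcf7-negative cells. Genes most like Lef1 were Dennd2d (r 0.98), Fam78a and Luc7l (r 0.95 each).

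Id3 (chr4:136143497-136145755, plus strand, ENSMUSG00000007872) had the largest ratio of the 8 genes in CD8 T, CD4 T, Foxp3-positive T and NK cells. In CD8 T cells it had 103 CPM in PBM and 12.2 CPM in Control (log2 3.09, 2.81 to 3.39). In CD4 T cells Id3 had 100.2 CPM in PBM and 10.5 CPM in Control (log2 3.26, 2.52 to 4.11). Foxp3-positive T cells had 112 CPM in PBM and 4.28 CPM, from 9 UMIs, in Control (log2 4.71, 3.74 to 5.87). The 3 T cell classes of PBM overlapped in their intervals, whereas Tcf7 and Lef1 separated them.

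Cells with an Id3 UMI made up 36.2% of PBM and 4.83% of Control CD8 T cells, against 9.64% and 2.27% of macrophage-like cells. Free RNA could supply 20.3% and 4.88% of the CD8 T cell level, but 69.4% of the Id3 level in PBM NK cells. In B cells Id3 had 156 CPM in PBM and 54.4 CPM in Control (log2 1.52, 1.03 to 2.05), its highest class in both libraries. The most alike genes were Tecpr2 (r 0.96), Rps27rt (0.95) and Tcof1 (0.95).

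Bach2 (chr4:32238804-32586108, plus strand, ENSMUSG00000040270) differed least in CD8 T cells and strongly in Foxp3-positive T cells. It had 102 CPM in CD8 T cells of PBM and 72.0 CPM in those of Control (log2 0.50, 0.38 to 0.63). Foxp3-positive T cells had 105 CPM in PBM and 12.4 CPM in Control (log2 3.08, 2.47 to 3.75), and CD4 T cells 152 and 59.3 CPM (log2 1.36, 1.03 to 1.69). B cells, in which BACH2 restrains plasma cell differentiation, had the highest Bach2 level of the classes in both libraries, with 186 CPM in PBM and 298 CPM in Control (log2 -0.68, -0.89 to -0.46). The antisense model Bach2os stood at 1.09 CPM in PBM and 0.935 CPM in Control CD8 T cells. Listed models also overlap Bach2 (Bach2it1, same strand), Foxp1 (Gm20696 and Gm20705, same strand) and Foxo1 (Gm20402, antisense). Reads shared with them cannot be told apart. Macf1 (r 0.93), Aff3 (0.93) and Eif4a2 (0.91) were most like Bach2.

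Satb1 (chr17:51736187-51833290, minus strand, ENSMUSG00000023927) was higher in CD8 and CD4 T cells of PBM and nearly level in Foxp3-positive T cells. It had 255 CPM in CD8 T cells of PBM and 164 CPM in those of Control (log2 0.64, 0.56 to 0.73). In CD4 T cells Satb1 had 351 CPM in PBM and 163 CPM in Control (log2 1.10, 0.91 to 1.31). In Foxp3-positive T cells it had 199 and 196 CPM, with an interval of the log2 ratio from -0.21 to 0.25. Over the Control classes Satb1 was flat, between 146 CPM in B cells and 196 CPM in Foxp3-positive T cells. Skp1a (r 0.91), Ccdc85b (0.90) and Rapgef6 (0.87) were most like it.

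The forkhead genes Foxp1 and Foxo1 had similar ratios to each other in the CD8 T cells, 2.69-fold and 2.67-fold. Foxp1 (chr6:98925338-99522721, minus strand, ENSMUSG00000030067) had 304 CPM in CD8 T cells of PBM and 113 CPM in those of Control (log2 1.43, 1.33 to 1.53), 387 and 123 CPM in CD4 T cells and 303 and 106 CPM in Foxp3-positive T cells. Across the 4 T and NK classes of Control its level stayed between 106 and 123 CPM. B cells, in which FOXP1 also acts, held the most Foxp1 of the classes in both libraries, with 449 CPM in PBM and 779 CPM in Control (log2 -0.80, -0.93 to -0.66). Eif4a2 (r 0.99), Dipk1a (0.97) and Tcp11l2 (0.95) were most like Foxp1, and Bach2 was the most like it of the other 7 genes (r 0.88).

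Foxo1 (chr3:52268336-52353221, plus strand, ENSMUSG00000044167) had 141 CPM in CD8 T cells of PBM and 53.1 CPM in those of Control (log2 1.41, 1.27 to 1.56). In CD4 T cells it had 193 and 96.3 CPM (log2 1.01, 0.75 to 1.27), and in Foxp3-positive T cells 208 and 97.4 CPM (log2 1.09, 0.83 to 1.36). B cells had 145 CPM in PBM and 149 CPM in Control, and the interval of their log2 ratio ran from -0.33 to 0.27. Prkd2 (r 0.95), Ddx24 (0.95) and Il16 (0.92) were most like Foxo1.

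Bcl11b (chr12:107910403-108003602, minus strand, ENSMUSG00000048251) was higher in the T cell classes than in NK and B cells in both libraries. It had 251 CPM in CD8 T cells of PBM and 142 CPM in those of Control (log2 0.82, 0.73 to 0.91), 426 and 344 CPM in CD4 T cells (log2 0.31, 0.17 to 0.45) and 427 and 246 CPM in Foxp3-positive T cells (log2 0.79, 0.62 to 0.97). NK cells had 31.8 CPM in PBM and 5.61 CPM in Control, and B cells 16.5 and 11.2 CPM. Free RNA could supply 100% of the Bcl11b level in NK and B cells of PBM. The most alike genes, Cd5 (r 0.97), Trac (0.97) and Sit1 (0.96), are T cell genes.

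**Figure D2:**
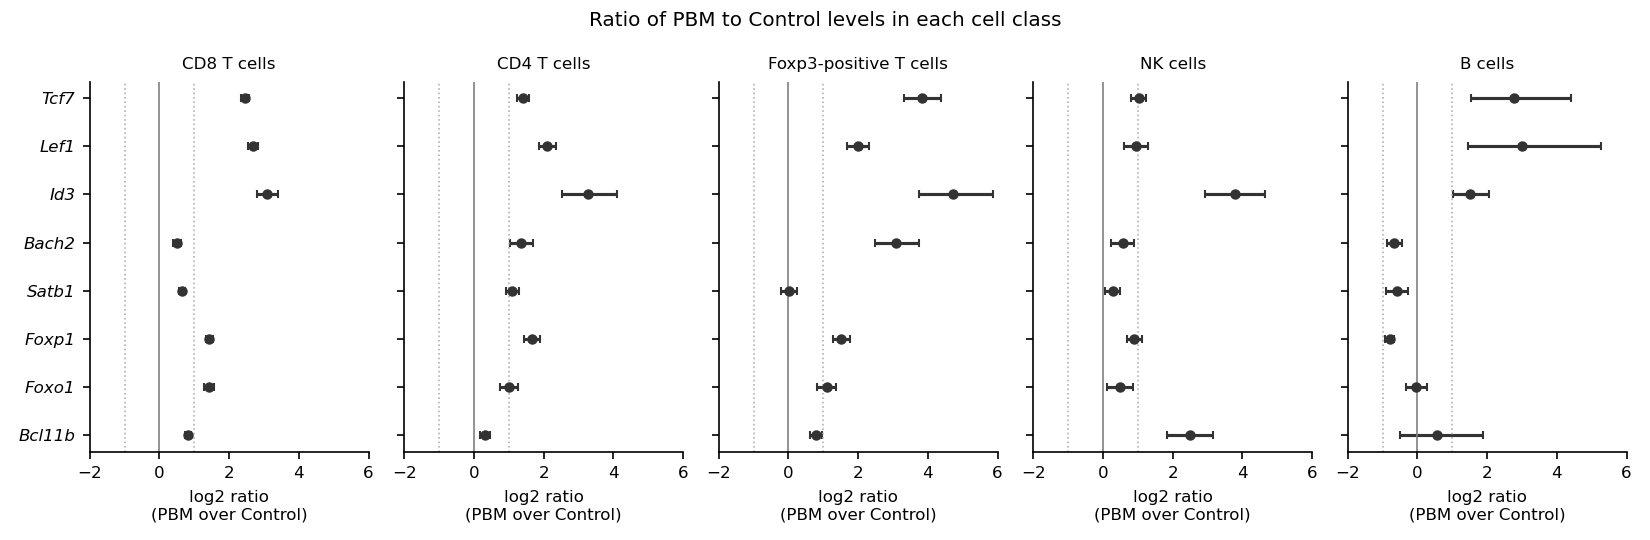
Log2 ratio of PBM over Control for the 8 genes in each cell class, with 95% counting intervals; dotted lines mark 2-fold. Values lay above 0 for all 8 genes in the T and NK cell classes, with the Satb1 interval in Foxp3-positive T cells including 0, and on both sides of 0 in B cells.

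In CD4 T cells 7 of the 8 genes were higher in PBM by 2-fold or more, where 7.45% of measured genes were, and the median log2 ratio was 1.38, against -0.15 over all genes. In Foxp3-positive T cells 6 of 8 were, against 5.37% of measured genes, with a median of 1.75 against -0.16. Bcl11b was under 2-fold in both of these classes, and Satb1 in the Foxp3-positive T cells. None of the 8 was lower by 2-fold in either, where 13.1% and 14.2% of measured genes were.

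In NK cells 3 of the 8 were higher by 2-fold or more, Id3, Bcl11b and Tcf7, while 7.26% of measured genes were higher and 9.63% lower by as much. The median was 0.93, against 0.09 over all genes. Tcf7, which NK cells also use in their development, had 216 CPM in PBM and 106 CPM in Control NK cells (log2 1.02, 0.80 to 1.24), and free RNA could supply 24.2% and 3.48% of these levels. With free RNA subtracted at the median over markers, the NK median was 0.38. Of the 3 genes Id3 alone then stayed past 2-fold (log2 2.54, 1.18 to 3.82), with Tcf7 at 0.67 (0.43 to 0.91) and Bcl11b at 0.59 (-1.81 to 2.35). These intervals leave out the error of the subtracted share, for which the markers ran from 11.33% to 22.05% of the library level in PBM NK cells. NK cells of PBM also carried more T cell marker UMIs, with the 9 markers together at 1545 CPM in PBM and 967 CPM in Control and none at 0 in either. Their part in the result was not tested.

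B cells gave no common direction. Tcf7, Lef1 and Id3 were higher in PBM by 2-fold or more, where 4.91% of measured genes were, and none of the 8 was lower by 2-fold, where 18.0% were. Bach2, Satb1 and Foxp1 were lower over the class by less than 2-fold with intervals under 0, but for Bach2 and Satb1 not within the largest B cell cluster. In that cluster, led by Iglc1 and Iglc2, Bach2 had 144 CPM in PBM and 159.5 CPM in Control (log2 -0.15, -0.46 to 0.18), Satb1 84.2 and 96.9 CPM (log2 -0.20, -0.60 to 0.23) and Foxp1 405 and 556 CPM (log2 -0.46, -0.63 to -0.29). Of the 186 Bach2 UMIs of Control B cells, 99 came from the 23 cells of a cluster led by Ebf1 and Bank1, where Bach2 stood at 467 CPM in PBM and 1292 CPM in Control. Tcf7 had 54.7 CPM in PBM and 8.0 CPM, from 5 UMIs, in Control B cells, and Lef1 had 38.1 and 4.80 CPM, the last from 3 UMIs (log2 2.99, 1.44 to 5.27). Free RNA could supply 87.1% of the Tcf7 and 98.7% of the Lef1 level in PBM B cells, but 12.1% of Id3. A Tcf7 UMI was seen in 21.9% of PBM B cells at a median of 4440.5 UMIs, and in 18.1% of macrophage-like cells at 2310 UMIs. Its source in B cells was not tested.

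Within clusters that held at least 50 cells of a class from each library, the differences were smaller for CD8 T cells. In the cluster led by Klra6 and Tcrg-C2, a Ly49 receptor gene and a gamma chain gene of the T cell receptor, 103 PBM and 135 Control CD8 T cells gave a median log2 ratio of 0.28, and Id3 alone was 2-fold higher, where 4.15% of measured genes were higher and 6.42% lower by as much. Id3 stood there at 182 CPM in PBM and 73.8 CPM in Control (log2 1.30, 0.86 to 1.76), Tcf7 at 452 and 311 CPM (log2 0.54, 0.30 to 0.78), and Lef1 at 189 and 177 CPM (log2 0.10, -0.24 to 0.44). Satb1 was lower in PBM, at 203 CPM against 288 CPM in Control (log2 -0.50, -0.80 to -0.21). Bach2 stood at 73.4 CPM in PBM and 88.3 CPM in Control (log2 -0.27, -0.79 to 0.25). With free RNA subtracted as well the median was -0.0020, Lef1 stood at -0.25 (-0.61 to 0.12) and Bcl11b at -0.15 (-0.54 to 0.24). Bach2 was then at -0.81 (-1.42 to -0.22) and Satb1 at -0.75 (-1.07 to -0.44), both opposite to their ratios over all CD8 T cells.

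The 29 Control CD8 T cells of the Dapl1-led cluster, too few for a comparison, held 387 CPM each of Tcf7 and Lef1, against 421 and 333 CPM in the 2833 PBM cells there. They had no Id3 UMI, with a 95% counting interval up to 33.2 CPM, while the PBM cells had 104 CPM. The 999 Control CD8 T cells of the Ifng-led cluster had 43.6 CPM of Tcf7, 31.7 CPM of Lef1 and 5.62 CPM of Id3, and 68.5 CPM of Bach2 and 144 CPM of Satb1. The PBM cells of the Dapl1-led cluster had 95.2 CPM of Bach2 and 247 CPM of Satb1.

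Among CD4 T cells of the Izumo1r-led cluster, 159 in PBM and 237 in Control, the median log2 ratio was 0.83, and Tcf7, Id3 and Foxp1 were higher by 2-fold or more, where 5.34% of measured genes were higher and 8.44% lower by as much. Tcf7 had 540 CPM in PBM and 221 CPM in Control (log2 1.29, 1.06 to 1.52), and Id3 had 190 and 11.5 CPM (log2 4.04, 3.23 to 4.99). Bach2 (log2 0.06, -0.50 to 0.62), Bcl11b (-0.03, -0.26 to 0.20) and Satb1 (-0.29, -0.65 to 0.07) had intervals that included 0, and with free RNA subtracted Bach2 and Satb1 stood at -0.60 and -0.70. Their higher level in CD4 T cells of PBM as a whole was therefore not found within this cluster.

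In the B cell cluster led by Iglc1 and Iglc2, 4154 PBM and 178 Control cells gave a median of 0.06, with 3 of the 8 genes higher by 2-fold and none lower, where 5.72% of measured genes were higher and 15.8% lower. All NK cells lay in 1 cluster at resolution 1.0. At resolution 2.0 NK clusters held 199 PBM and 1039 Control cells, 3 and 137 cells, and 1 and 147 cells. Subsets of Control NK cells thus had few PBM cells, and their part in the NK ratios was not tested.

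**Figure D3:**
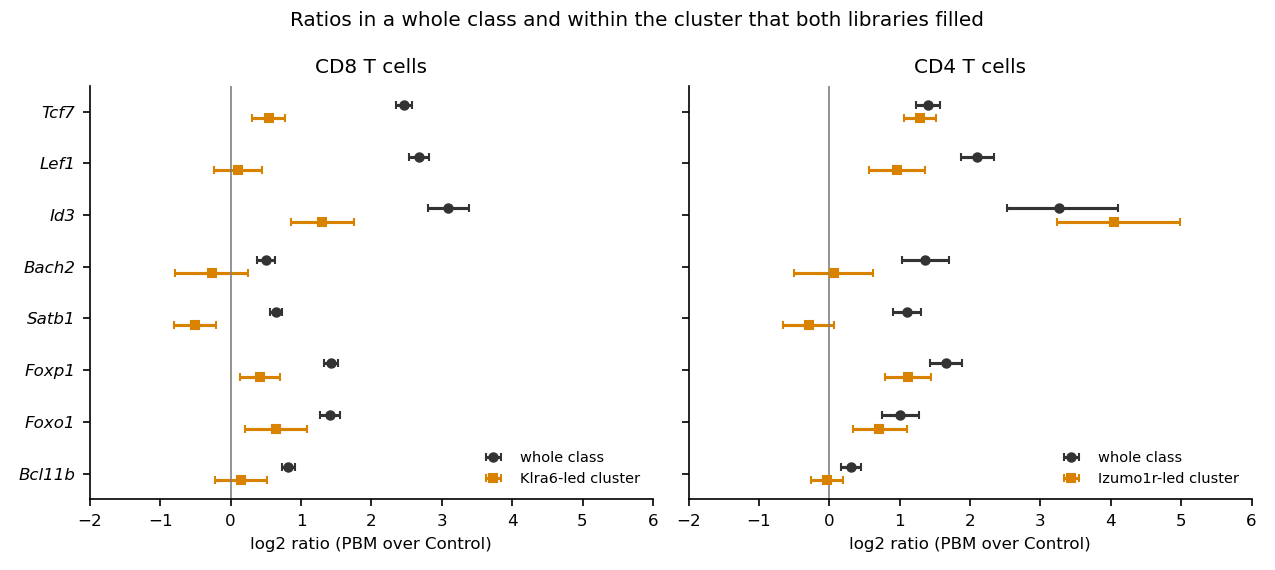
Log2 ratio of PBM over Control in the whole class (circles) and in the cluster filled by both libraries (squares), with 95% counting intervals. In CD8 T cells Tcf7 was at 2.46 over the class and 0.54 in the Klra6-led cluster; in CD4 T cells Id3 was at 3.26 over the class and 4.04 in the Izumo1r-led cluster.

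Single CD8 T cells held fewer of the 8 genes in Control. Thinned to 1000 UMIs, they had a mean of 1.67 of the 8 genes in PBM and 0.693 in Control, and none of them was seen in 17.2% of PBM and 51.4% of Control cells. For CD4 T cells the means were 2.12 and 1.03, for Foxp3-positive T cells 1.51 and 0.647, for NK cells 0.862 and 0.605, and for B cells 0.985 and 1.06.

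Co-detection with Pdcd1 differed in scale between the libraries, since few PBM cells had a Pdcd1 UMI. Pdcd1 was seen in 47 of 3508 CD8 T cells of PBM (1.34%, 0.986 to 1.78) and in 580 of 1201 of Control (48.3%, 45.4 to 51.2). Macrophage-like cells had a Pdcd1 UMI in 0.602% of PBM and 2.68% of Control cells. Pdcd1-positive cells were deeper than Pdcd1-negative ones, with medians of 8333 and 6334 UMIs in PBM and 7170 and 4142 UMIs in Control.

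In Control, Tcf7, Lef1 and Id3 were less abundant in Pdcd1-positive CD8 T cells despite that depth. Tcf7 had 26.3 CPM in Pdcd1-positive and 161 CPM in Pdcd1-negative cells (log2 -2.61, -2.89 to -2.34). Lef1 had 23.1 and 100.1 CPM (log2 -2.12, -2.43 to -1.81), and Id3 4.73 and 24.2 CPM (log2 -2.36, -3.07 to -1.69). Foxo1 (log2 -1.05), Bcl11b (-0.84), Foxp1 (-0.72) and Satb1 (-0.49) were lower by less, and Bach2 stood at 68.8 and 77.2 CPM (log2 -0.17, -0.40 to 0.07).

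A Tcf7 UMI was seen in 80 of 580 Pdcd1-positive Control cells (13.8%, 11.1 to 16.9) and in 35.9% of the Pdcd1-negative ones. Macrophage-like cells of Control, of like depth to the Pdcd1-positive cells, had one in 4.33%. Thinned to 1000 UMIs, 3 of 192 Pdcd1-positive cells (1.56%, 0.323 to 4.50) and 9.51% of the negative ones had it. At full depth, the Ifng-led cluster had a Tcf7 UMI in 12.5% of Pdcd1-positive and 24.2% of Pdcd1-negative cells. That gap in points was smaller than over the class. Thinned to 1000 UMIs, the shares in this cluster were 1.08% (2 of 185 cells) and 5.77%. In the Klra6-led cluster at full depth, a Tcf7 UMI was seen in 7 of 10 Pdcd1-positive cells and 72.0% of the Pdcd1-negative ones.

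In PBM, 41 of the 47 Pdcd1-positive CD8 T cells had a Tcf7 UMI (87.2%, 74.3 to 95.2), and so had 87.7% of the Pdcd1-negative cells. Tcf7 levels in these cells were 393 and 428 CPM (log2 -0.12, -0.35 to 0.09). Lef1 (log2 -0.70, -1.01 to -0.40) and Satb1 (-0.74, -1.11 to -0.40) were lower in the Pdcd1-positive cells of PBM and Id3 was higher (0.63, 0.26 to 0.97). Free RNA could supply 24.0% of the Pdcd1 level in PBM CD8 T cells, and its part in the 47 cells was not tested. Thinned, 8 cells were left, 4 of them with Tcf7 (50.0%, 15.7 to 84.3).

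**Figure D4:**
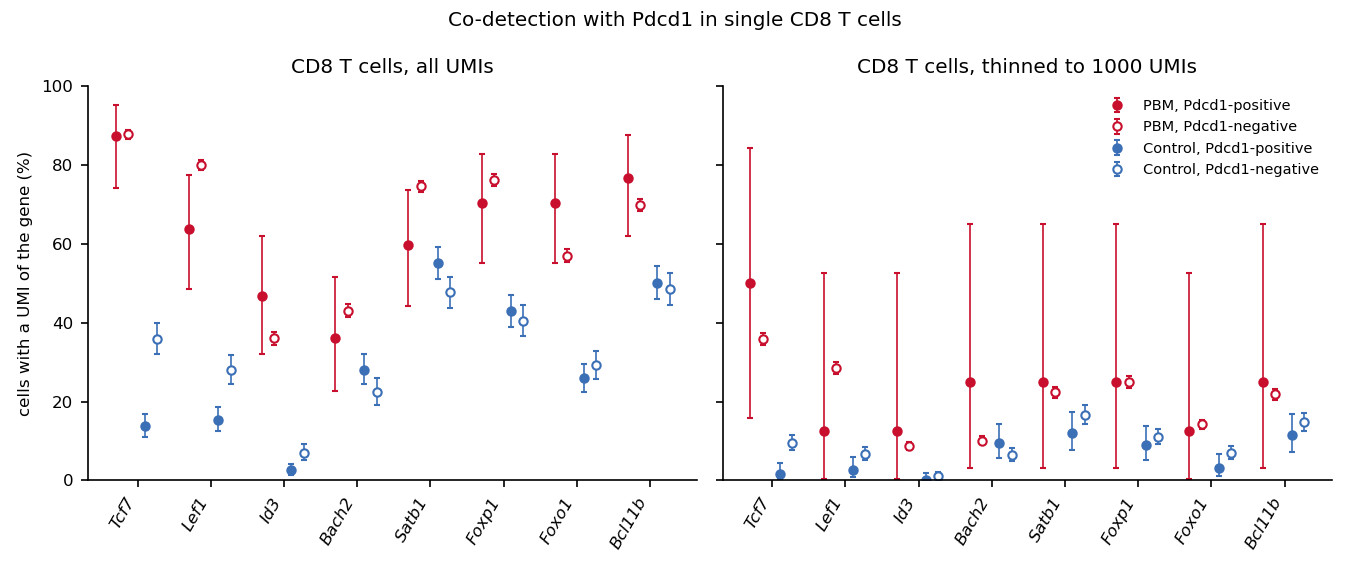
Share of CD8 T cells with a UMI of each gene among Pdcd1-positive cells (filled) and Pdcd1-negative cells (open), in PBM and Control, at full depth (left) and thinned to 1000 UMIs (right), with 95% exact binomial intervals. In Control, Tcf7 was seen in 13.8% of Pdcd1-positive and 35.9% of Pdcd1-negative cells at full depth.

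The Pdcd1-positive CD8 T cells of Control were then split by Tcf7, giving 80 Tcf7-positive cells (median 8486 UMIs) and 500 Tcf7-negative cells (7034 UMIs). Of the other 7 genes, Id3 alone was 2-fold higher in the Tcf7-positive cells, where 2.55% of 9693 measured genes were higher and 5.62% lower by that much. Id3 had 21.1 CPM, from 20 UMIs, in the Tcf7-positive cells and 1.15 CPM, from 5 UMIs, in the Tcf7-negative ones (log2 4.20, 2.74 to 5.96). Lef1 had 32.7 and 21.0 CPM (log2 0.64, 0.0036 to 1.24), and Bach2, Satb1, Foxp1, Foxo1 and Bcl11b lay between -0.08 and 0.30. Over the 70 Tcf7-positive and 490 Tcf7-negative cells of the Ifng-led cluster, Id3 did not reach 20 UMIs and none of the other 6 genes differed by 2-fold.

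Naive and homing genes were higher in the Tcf7-positive cells in 7 of 11 measured cases, 5 of them by 2-fold, with a median log2 ratio of 0.74 against -0.03 over all genes. Dapl1 had 58.0 and 12.9 CPM in Tcf7-positive and Tcf7-negative cells (log2 2.17, 1.61 to 2.73), and S1pr1, a receptor gene for exit from tissues, 29.5 and 11.8 CPM (log2 1.33, 0.61 to 2.02). Bcl2 (-0.28) and Actn1 (-0.38) were at the low end. Of 8 progenitor-exhausted genes measured, 4 were higher and 4 lower, with 3 higher and 0 lower by 2-fold and a median of 0.36. Slamf6, a surface marker of that subset, had 31.7 and 10.6 CPM (log2 1.58, 0.86 to 2.27), Xcl1, a chemokine gene that attracts dendritic cells, 2862 and 1355 CPM (log2 1.08, 1.01 to 1.15), and Icos was lowest (-0.68).

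Exhaustion genes were lower in 8 of 10 cases, 4 of them by 2-fold, with a median of -0.55. Tigit, from 5 and 64 UMIs, stood at -1.48 (-3.15 to -0.19) and Havcr2, the TIM-3 gene, at 57.0 and 130.9 CPM (log2 -1.20, -1.63 to -0.80), whereas Cd38 and Cd101 were at 0.12. Effector genes were lower in 7 of 11 cases, with Ifng at 387 and 808 CPM (log2 -1.06, -1.22 to -0.91), Ccl3 at -0.85 and Klrg1 and Gzmk at 0.92 and 0.25. Of the effector and exhaustion transcription factors Eomes (-1.10) and Prdm1 (-0.76) were lowest and Nr4a1 (0.79) and Maf (0.61) highest. Among family relatives Id2, another E protein inhibitor, had 565 and 872 CPM (log2 -0.63, -0.76 to -0.49), Foxo3 was at -0.57, and Foxo4 (0.61) and Bach1 (0.40) were highest. Among partners Runx1 (0.62) and Tle4 (0.33) were highest and Gata3 (-0.42) and Runx3 (-0.19) lowest.

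Within the Ifng-led cluster alone, a restriction chosen after seeing the data, 2.48% of measured genes were higher and 6.18% lower by 2-fold in the Tcf7-positive cells. There, 4 of 11 naive and homing genes were still 2-fold higher, among them Dapl1 at 2.23. Of 8 progenitor-exhausted genes 6 were higher, 2 of them by 2-fold, and 2 lower, with Slamf6 at 1.65 and Xcl1 at 0.95. Havcr2 and Tigit were at -1.08 and -1.36. In PBM the split left 6 Tcf7-negative cells, and its values are not described by gene.

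**Figure D5:**
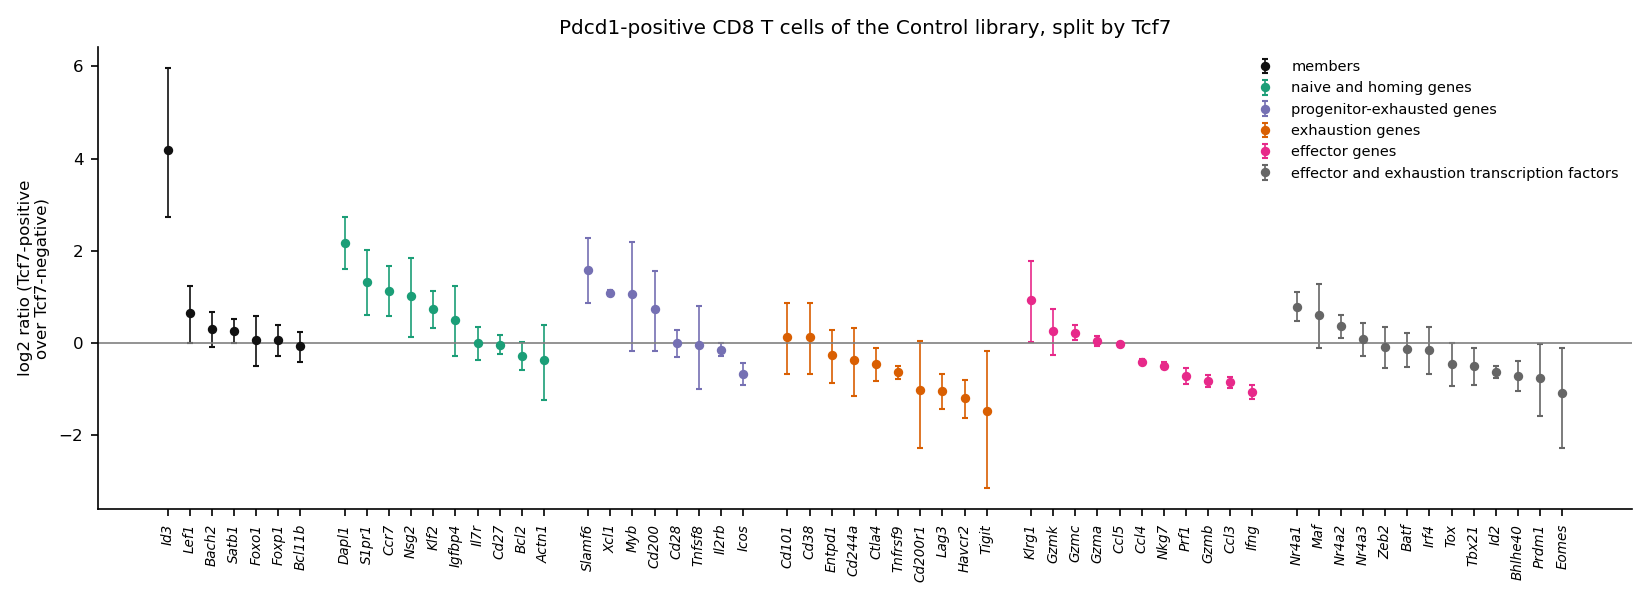
Log2 ratio of Tcf7-positive over Tcf7-negative cells among Pdcd1-positive CD8 T cells of the Control library, by gene list, with 95% counting intervals, for genes reported here with at least 20 UMIs. Id3, Dapl1 and Slamf6 lay above 1 and Tigit, Havcr2, Eomes, Ifng and Lag3 below -1.

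Set beside the other lists in CD8 T cells, PBM over Control, the 8 genes lay with the naive and homing genes and apart from exhaustion and effector genes. Of 12 naive and homing genes 9 were higher by 2-fold or more (median log2 2.20), with Dapl1 at 636 CPM in PBM and 48.9 CPM in Control and Ccr9, a gut homing receptor gene, at 45.1 and 3.27 CPM; Bcl2 (-0.73) and Cd27 (-0.02) were at the low end. All 10 exhaustion genes were lower (median -3.54), from Havcr2 (-6.61) and Lag3 (-6.03) to Ctla4 (-0.77) and Cd38 (-0.67). All 11 effector genes were lower by 2-fold or more (median -5.16), from Gzmc (-7.43) and Ccl3 (-6.60) to Ccl5 (-2.29) and Nkg7 (-1.98).

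Of 13 effector and exhaustion transcription factors 10 were lower by 2-fold (median -2.70), with Bhlhe40 (-5.81) and Zeb2 (-4.99) lowest, whereas Tox was at 58.1 and 55.5 CPM (log2 0.06) and Eomes at 44.1 and 22.9 CPM (log2 0.94). Progenitor-exhausted genes differed among themselves: Cxcr5 (3.40) and Slamf6 (1.69) were higher and Xcl1 (-4.15) and Icos (-2.54) lower. Family relatives also went both ways. Id2 had 85.2 CPM in PBM and 787 CPM in Control (log2 -3.21, -3.28 to -3.14), opposite to Id3, and Tcf7l2 was at -2.58. Foxo3 was at 1.24, and Bcl11a, a B cell gene, at 3.49 beside 8 B cell markers that together stood at 632 CPM in PBM and 20.1 CPM in Control CD8 T cells, none at 0; their part in the result was not tested.

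Partners and readouts of the members' pathways moved less, with none of 14 measured genes 2-fold higher and 1 lower (median 0.04). Axin2, a target of Wnt signalling, had 6.40 CPM in PBM and 3.27 CPM in Control (log2 0.97, 0.38 to 1.60), Tle4, a corepressor gene, was at 0.87, and Gata3 and Tle3 were at -1.12 and -0.69. Of the immature T cell genes Dntt had 3.82 CPM in PBM and 0.117 CPM, 1 UMI, in Control (log2 5.03, 2.52 to 10.4), and Cd1d1 was at 0.66. Control CD8 T cells carried more macrophage marker RNA, the 10 markers together at 43.0 CPM in PBM and 1383 CPM in Control, and more of the 7 NK markers, at 49.2 and 1102 CPM, with no marker at 0 in either library. Their part in these ratios was not tested.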

How the data were processed

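The deposited values are whole-number UMI counts, which the authors left unnormalized, with genes in rows and barcodes in columns. Per the submitters' processing notes, Cell Ranger 7.2.0 and mm10 were used, whereas the matrix headers name PISA 0.12; per the labels' protocols the kit was a 10x Genomics 3′ kit. Barcodes needed 500 UMIs, 200 genes and at most 10% mitochondrial UMIs, and Scrublet (scanpy 1.11.5) removed 899 PBM (6.44%) and 150 Control (1.34%) barcodes as doublets. Clusters came from 2000 variable genes, without the 8 genes, Pdcd1 and mitochondrial, ribosomal, cell cycle and antigen receptor segment genes, 30 principal components, 15 neighbours and Leiden resolution 1.0 (igraph 0.11.9, seed 0). A cluster was named with at least 3 markers at 1.5 times the mean level. Ratio intervals are exact conditional binomial, level intervals exact Poisson and share intervals Clopper-Pearson. On counts simulated with counting error alone, 95.8% of the CD8 T cell ratio intervals held the true value. Such intervals hold it near 95% by construction, so this does not cover variation between animals or libraries. Of unchanged genes in the simulation, 1.99% in CD8 T, 6.30% in NK and 16.5% in B cells passed 2-fold in either direction. A sum of 0 counts was set to 3. Free RNA is the median, over markers of other classes, of their class level over the library level. The spread of those markers is not carried into the free RNA shares or the subtracted ratios and their intervals. Genes named beyond the 8 are, per list, the 2 highest and 2 lowest log2 ratios at 20 UMIs or more, and per member the 3 most alike at 50 CPM or more in 1 profile; S1pr1, Lag3 and Bach2os were added after their values were seen, and 1 gene the rule names is not reported here. The members and lists were chosen with earlier results of these data known. Alternatives included TMM factors (edgeR 4.0.16).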

Additional observations from a re-analysis of the deposited data

Results flagged for a closer look

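Bach2, Foxp1 and Satb1 stood out because PBM and Control differed in opposite directions in different cell classes, with counting intervals away from 0 on both sides; the difference between classes was not tested. In B cells Bach2 had a log2 ratio (PBM over Control) of -0.68, against 0.50 to 3.08 in the T and NK cell classes. Within clusters filled by both libraries Bach2 was at -0.15 in B cells (-0.46 to 0.18), -0.27 in CD8 T cells (-0.79 to 0.25) and 0.06 in CD4 T cells (-0.50 to 0.62), each with 0 inside the interval. In NK cells, all in 1 shared cluster at resolution 1.0 but not at 2.0, it was at 0.57 (0.24 to 0.88). Of its 186 UMIs in Control B cells, 99 came from 23 Ebf1-led cells. Foxp1 was at -0.80 in B cells, against 0.90 to 1.65 in those 4 classes, and at -0.46 (-0.63 to -0.29) within the shared B cell cluster. Satb1 was at -0.59 in B cells, against 0.28 to 1.10 in CD8 T, CD4 T and NK cells. Within shared clusters Satb1 was at -0.20 (-0.60 to 0.23) in B cells, -0.50 (-0.80 to -0.21) in CD8 T cells and -0.29 (-0.65 to 0.07) in CD4 T cells. In NK cells, all in 1 shared cluster at resolution 1.0 but not at 2.0, it was at 0.28 (0.07 to 0.50). It was at -0.27 when thinned to 1000 UMIs. The B cell values rest on 206 Control cells.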

How the results depend on the processing

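No paired analysis was possible because each group holds 1 library. The median log2 ratio of the 8 genes in CD8 T cells, 1.42, was 1.26 in cells thinned to 1000 UMIs, 0.90 with T cells chosen per cell without clusters (793 PBM and 86 Control cells), 1.71 with median-of-ratios scaling, 1.64 with TMM scaling and 1.22 with free RNA subtracted; among alternatives chosen after seeing the data it was 0.28 in the Klra6-led cluster and -0.0020 there with free RNA subtracted. The CD4 T cell median, 1.38, was 0.99 per cell without clusters, 0.83 in the Izumo1r-led cluster and 0.53 there with free RNA subtracted. The NK median, 0.93, was 0.57 thinned and 0.38 with free RNA subtracted, and the B cell median, 0.26, was -0.55 with free RNA subtracted. The Foxp3-positive T cell median stayed between 1.60 and 1.92, but no alternative within 1 cluster was run for this class. No cluster held 50 of its cells from each library. The Izumo1r-led cluster held 195 PBM and 11 Control cells of it, and the Klrg1-led cluster 10 and 393. The share of Pdcd1-positive CD8 T cells with a Tcf7 UMI was 87.2% in PBM and 13.8% in Control. For PBM it was 73.9% with doublets kept, 50.0% thinned and 66.7% (2 of 3 cells) in the Klra6-led cluster. For Control it was 1.56% thinned and 70.0% in the Klra6-led cluster. Per cell without clusters it was 0.0% in Control (0 of 31 cells, where 3 cells would give 9.68%). With doublets kept, or the 8 genes kept in clustering, the Dapl1-led cluster stayed unnamed. Of 560 alternative values of single genes, 437 stayed within the counting interval, and 24, in 13 gene and class pairs, had the opposite sign. Of the ratios past 2-fold, 5 alternative values turned round: Lef1 in CD8 T cells (-0.25, Klra6-led, free RNA subtracted), Bach2 (-0.60) and Satb1 (-0.29, and -0.70 with free RNA subtracted) in the Izumo1r-led CD4 T cells, and Lef1 in B cells (-2.51, free RNA subtracted). Among ratios under 2-fold, those with the opposite sign included Bach2 (-0.27, and -0.81 with free RNA subtracted), Satb1 (-0.50 and -0.75) and, with free RNA subtracted, Bcl11b (-0.15) in the Klra6-led CD8 T cells, Satb1 in thinned NK cells (-0.27), Bcl11b in B cells (-6.00, free RNA subtracted) and Satb1 in Foxp3-positive T cells (-0.82, per cell). The cause was not tested. The number of cells limits the PBM co-detection share, with 47 Pdcd1-positive cells, and depth limits Control B cells, with 3 to 7 UMIs of Tcf7, Lef1 and Bcl11b.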
